A study of Mus musculus with 10 samples.

Results

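The genes described here are the ion channel genes of the developing mouse pancreas whose symbols begin with Cacna1, Cacna2d, Cacnb or Cacng, or consist of Kcn or Scn with family letters and a number, and that had at least 20 unique molecular identifiers (UMIs, each tagging one captured transcript) over all matrices. Of 131 listed symbols that match, 113 reached that number and 18 did not, out of 27716 genes listed in every matrix. Just inside the limit were Cacng3 and Kcnj6 with 21 UMIs each, Kcnv2 with 24, and Cacna1s and Kcnj10 with 26. Just outside were Kcng4 with 17 UMIs, Kcnj9 with 15, Kcng3 with 14, and Kcna7 and Kcnj1 with 13. The name voltage-gated covers only some of these genes. The symbols take in 49 pore or modifier subunits of voltage-gated calcium, sodium and potassium channels and 30 auxiliary subunits, together with 34 genes of calcium- or sodium-activated, inwardly rectifying and two-pore potassium channels, many of which do not sense voltage. The neuronal sodium channel gene Scn2a carries the older symbol Scn2a1 in these matrices, does not match, and is not among the 113.

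The data were 3′ single-cell RNA-sequencing counts from embryonic pancreas, deposited as 10 samples and forming 8 independent libraries. With the version 1 kit, all live cells of Swiss Webster pancreata were taken on embryonic days E12.5 (1 library), E14.5 (2 batches) and E17.5 (1 library). With the version 2 kit, Swiss Webster cells negative for CD140a, the mesenchymal surface protein Pdgfra, were sorted on the same 3 days, where the 2 wells of the latest day held one suspension and were summed. The remaining library came from E14.5 Fev-Cre; ROSA26mTmG embryos on a C57BL/6J background, in which cells that have expressed Fev, and their descendants, switch from membrane tdTomato to membrane GFP, and it combined GFP-positive with tdTomato-positive, GFP-negative cells. Each library pooled the pancreata of several embryos, so one library is one replicate, and no group received a treatment. In total 57982 cells were kept, between 2309 and 13182 per library, with library medians of 2952 to 11256.5 UMIs per cell. At most 155 barcodes were shared by any pair of libraries. Cells were clustered without the channel genes and named only from marker genes, so the classes are written as alpha-like, mural-like and so on. Clusters without a clear name were left out of the levels and tests. Among endocrine cells these held 720 cells in E12.5, 655 in E14.5 and 362 in E17.5 version 2, 480 in Fev-Cre, and 15 to 49 in the version 1 libraries. In E12.5 version 2 no Fev+-like cluster was named. Levels are UMIs per 1000000 UMIs of a class (CPM) in a library, for classes with at least 20 cells there, and a 3′ UMI count does not grow with gene length. In 2 sums of the E12.5 version 2 library the markers went against the name of the cluster. Its 92 beta-like cells held alpha markers at 18023 summed CPM and beta markers at 5368, where the beta-like cells of the other 6 libraries held 2671 to 11406 and 63300 to 446185. Its 21 glia-like cells held neuron markers at 4272 and glial or crest markers at 934, where the other 2 libraries held 964 to 1778 and 3896 to 7448. Comparisons that use them are also given without that library. A level of 0 still allows up to 3 UMIs of that class total, by counting error alone. A summed level cannot tell a smaller share of expressing cells from less RNA in each of them.

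Voltage-gated channels open when the membrane depolarises. Calcium channels couple that change to hormone or transmitter release, sodium channels carry the fast upstroke of the action potential, and potassium channels bring the membrane back. In mature beta cells, closure of the ATP-sensitive potassium channel, built from Kcnj11 and the sulfonylurea receptor Abcc8, starts this sequence when glucose is high. In smooth muscle and pericytes the related pair Kcnj8 and Abcc9 sets vessel tone. Endocrine cells of the embryo arise from ductal-like epithelium through a stage that expresses Neurog3 (Ngn3+) and a later one that expresses Fev.

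The 113 genes together had 169137 UMIs, with a median of 414 per gene. Kcnk1, Kcnj8 and Cacna2d1 led with 31505, 22610 and 14541 UMIs. Over 16 classes, 53 genes reached a mean of 10 CPM in at least 1 class and 60 stayed below it in every class. Of the 53, 23 reached it in 1 class only and 13 in 5 or more. The highest level lay in an endocrine class, from Ngn3+-like to epsilon-like, for 44 genes, in neuron-like or glia-like cells for 27, and in mesenchymal, mural-like or mesothelial-like cells for 21. These counts depend on how many classes a group holds and on small sums, and were not set against other genes. Of the 14 genes highest in delta-like cells 6 reached 10 CPM there, of the 9 in epsilon-like cells 6, and of the 18 in neuron-like cells 11. The summed level of all 113 genes was 372 ± 96.6 CPM (SD, n = 8 libraries) in ductal-like cells, 665 ± 189 (n = 6) in Ngn3+-like, 852 ± 258 (n = 6) in Fev+-like, 649 ± 161 (n = 8) in alpha-like, 536 ± 177 (n = 7; 504 ± 171 without E12.5 version 2) in beta-like and 801 ± 102 (n = 4) in delta-like cells. These ranges overlapped among the endocrine classes. Hormone transcripts took up to 44.6% of all UMIs in beta-like cells and at most 0.122% in ductal-like cells, which lowers the CPM of every other gene in proportion, and the tests below therefore use the trimmed mean (TMM) scaling.

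**Figure D1:**
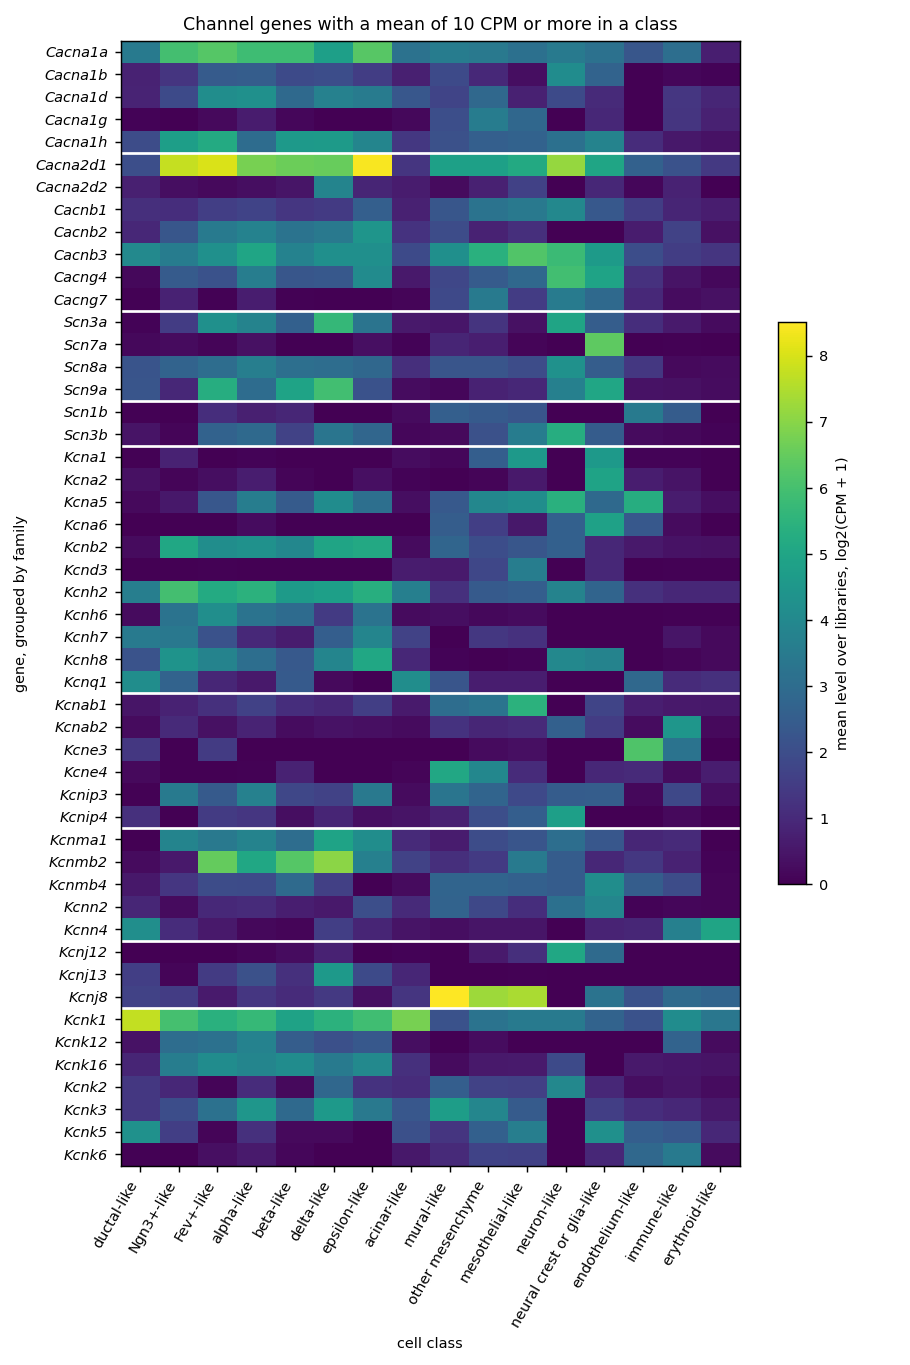
Mean level over libraries, as log2(CPM + 1), of 50 of the 53 channel genes with a mean of 10 CPM or more in at least 1 of the 16 cell classes (columns), grouped by family (white lines). The brightest cells are Kcnj8 in the mural-like column and Cacna2d1 in the epsilon-like and Fev+-like columns, and Kcnk1 is the brightest gene of the ductal-like column.

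In ductal-like cells Kcnk1 had the highest mean, 213 CPM. Far below it came Kcnk5, Kcnn4, Kcnq1 and Cacnb3, at means of 18.6, 17.7, 17.2 and 15.0 CPM. Kcnk1, a two-pore leak channel (mm10 chr8:125995170-126030685, plus strand), ranged over the 8 libraries from 124 to 293 CPM with a median of 214. It was also the channel gene with the highest mean in acinar-like cells, at 108 CPM. Kcnn4, the intermediate-conductance calcium-activated channel of secretory epithelia, and Kcnk5, an acid-sensitive two-pore channel, differed among the ductal-like cells by stage. Kcnn4 stood at 64.3 and 41.9 CPM in the E17.5 version 1 and version 2 libraries and at 0.976 to 15.7 in the other 6. Kcnk5 stood at 46.6 and 37.5 CPM in the same E17.5 libraries and at 5.85 to 17.9 in the others. Both kits thus gave their highest values of these genes at E17.5, a difference seen in the values and not tested. Red blood cell markers (9 genes) in the ductal-like sums were also highest in these libraries, at 47121 and 14533 summed CPM against 3.39 to 6657 in the other 6, and their part in the values was not tested. Kcnn4 itself had its highest class mean in erythroid-like cells, at 30.2 CPM against 17.7 in ductal-like cells. That erythroid-like mean was set by E14.5 version 1 batch 1, at 118 CPM, where the other erythroid-like sums stood at 8.17 to 24.9. Kcnk1 showed no such order by stage in ductal-like cells, with 264 and 194 CPM at E17.5.

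The step from ductal-like to Ngn3+-like cells had the most channel genes called, 19 against 18 at the step to Fev+-like cells. It also had the largest share of all genes called, and the order of the steps was not tested. In 6 libraries with both classes, 22 of the 113 genes had enough counts to be tested, 15 were higher in Ngn3+-like cells and 4 lower (edgeR quasi-likelihood test with the library as a block, adjusted p below 0.05 over all genes). Among all 11109 genes tested, 25.7% were called higher and 28.4% lower (54.1% either way). The median log2 difference of the 22 was 3.57, against -0.03 for all genes. The 22 passed the count filter in part because they are high in one of the classes, so this median describes them alone.

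Cacna2d1 (mm10 chr5:15934691-16374511, plus strand) encodes an auxiliary subunit that carries calcium channels to the surface. In Ngn3+-like cells it stood at 223 and 245 CPM in the E14.5 version 1 batches, 69.5 in E12.5, 323 in E14.5 and 157 in E17.5 version 2, and 297 in the Fev-Cre library. In ductal-like cells it never exceeded 8.95 CPM in any of the 8 libraries. The groups did not overlap, and the log2 difference was 6.29 ± 0.38 (SE), with an adjusted p of 7.32e-06 from edgeR. The calcium channel pores Cacna1a, of the P/Q type that serves transmitter release, and Cacna1h, a low-threshold T-type channel, rose as well, by 3.78 ± 0.58 and 3.44 ± 0.25. Both were higher in 6 of 6 libraries, although Cacna1a levels in Ngn3+-like cells overlapped those in ductal-like cells of other libraries.

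Of 9 tested voltage-gated potassium pores and modifiers, 7 rose. Kcnh2, the ERG1 channel that also shapes cardiac repolarisation, went from 11.2 ± 4.43 to 62.3 ± 15.7 CPM (SD, n = 6), by 2.61 ± 0.18 on the log2 scale with an adjusted p of 2.22e-08 by edgeR. Kcnb2, a delayed rectifier of the Kv2 group (mm10 chr1:15287254-15723750, plus strand), stood at 12.6 and 27.2 CPM in the E14.5 version 1 batches, 9.27, 30.4 and 67.6 in the version 2 libraries from E12.5 to E17.5, and 48.9 in the Fev-Cre library. Its ductal-like levels were at most 0.975 CPM, and the log2 difference was 7.68 ± 0.68. Kcnc1, a fast Kv3 delayed rectifier, Kcnh6 and Kcnh8 were also among the risers of this group, and Kcnh8 went from 2.24 ± 1.69 to 19.95 ± 8.36 CPM, by 3.54 ± 0.49.

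Some of these genes were nearly absent from ductal-like cells. Kcnma1, the pore of the large-conductance BK channel that opens to voltage and calcium together (mm10 chr14:23289431-24014491, minus strand), had 147 UMIs in Ngn3+-like and 1 UMI in ductal-like cells. The ratio of the pooled levels was 1051 (95% counting interval 186 to 41778, exact, covering counting error only). By library, Kcnma1 in Ngn3+-like cells stood at 8.41 and 0 CPM in the E14.5 version 1 batches, at 2.32, 14.9 and 37.9 in the version 2 libraries from E12.5 to E17.5, and at 17.3 in the Fev-Cre library. It was therefore not counted in 1 of the 6 and uneven among the rest. That 0 came from a sum of 220622 UMIs in 52 cells, too few to show that the gene was lacking. Kcnc1 had 51 against 1 UMI, a pooled ratio of 365 (62.5 to 14677).

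The 4 genes that fell at this step were Kcnk1, Kcnk5, Kcnn4 and Kcnq1, the last a voltage-gated potassium pore that works with small Kcne subunits in epithelia and heart. Kcnk1 went from 201 ± 65.2 to 63.5 ± 34.8 CPM (n = 6), a log2 difference of -1.74 ± 0.18. Kcnq1 was lower in 6 of 6 libraries, by a log2 difference of -2.003 ± 0.36, and Kcnn4 also in 6 of 6, by -4.02 ± 0.59. Ductal-like sums also held ductal marker genes at 4507 to 34555 summed CPM (11 genes) against 2035 to 5077 in Ngn3+-like cells, and the part of remaining ductal RNA in the lower levels was not tested.

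Promoter sequence is shown for 3 of the risers, the 2 with a match of CAGATG and Cacna2d1. The 15 risers are the genes called higher in Ngn3+-like cells, a class named from Neurog3 and other markers. Helix-loop-helix factors of the Neurog3 family bind E boxes such as CAGATG. Whether Neurog3 acts on these genes was not tested. The 250 bases before the annotated start, from RefSeq on GRCm38.p6, were available for 80 of the 113 genes and for 9 of the 15 risers. CAGATG was searched on both strands, where the reverse complement reads CATCTG. It occurred before 2 of those 9 risers, before 14 of the 80 channel genes and before 16.3% of the 27025 genes in the table (14.4% of its 32851 promoters). A match of these letters is a description and not a binding site. Capitals mark CAGATG, each sequence reads 5′ to 3′ on the strand of the gene, and Cacna2d1, the riser with the highest level, held no match in a window of 82.4% G and C.
Kcnip3, chr2:127522095-127522344, minus strand, 1 of its 3 entries: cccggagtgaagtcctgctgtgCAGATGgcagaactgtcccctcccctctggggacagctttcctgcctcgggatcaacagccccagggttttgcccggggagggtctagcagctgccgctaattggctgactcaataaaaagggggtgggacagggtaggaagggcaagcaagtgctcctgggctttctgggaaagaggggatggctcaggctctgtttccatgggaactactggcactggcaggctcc
Kcnk16, chr14:20269270-20269519, minus strand: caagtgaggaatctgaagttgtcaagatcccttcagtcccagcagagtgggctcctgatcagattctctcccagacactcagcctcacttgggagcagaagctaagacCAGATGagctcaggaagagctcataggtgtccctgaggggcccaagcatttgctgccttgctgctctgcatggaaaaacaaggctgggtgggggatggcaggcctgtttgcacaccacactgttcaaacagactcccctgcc
Cacna2d1, chr5:15934441-15934690, plus strand: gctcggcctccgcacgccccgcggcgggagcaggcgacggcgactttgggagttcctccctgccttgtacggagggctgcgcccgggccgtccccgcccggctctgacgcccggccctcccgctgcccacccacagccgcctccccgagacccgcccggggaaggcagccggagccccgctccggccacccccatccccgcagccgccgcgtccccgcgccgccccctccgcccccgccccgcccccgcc
Kcnip3 encodes a calcium-binding partner of Kv4 channels, and its level went from 0.0547 to 10.49 CPM, a log2 difference of 6.53 ± 0.58. Kcnk16, the islet two-pore channel TALK-1, went from 1.11 to 11.3 CPM, a log2 difference of 3.28 ± 0.46.

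**Figure D2:**
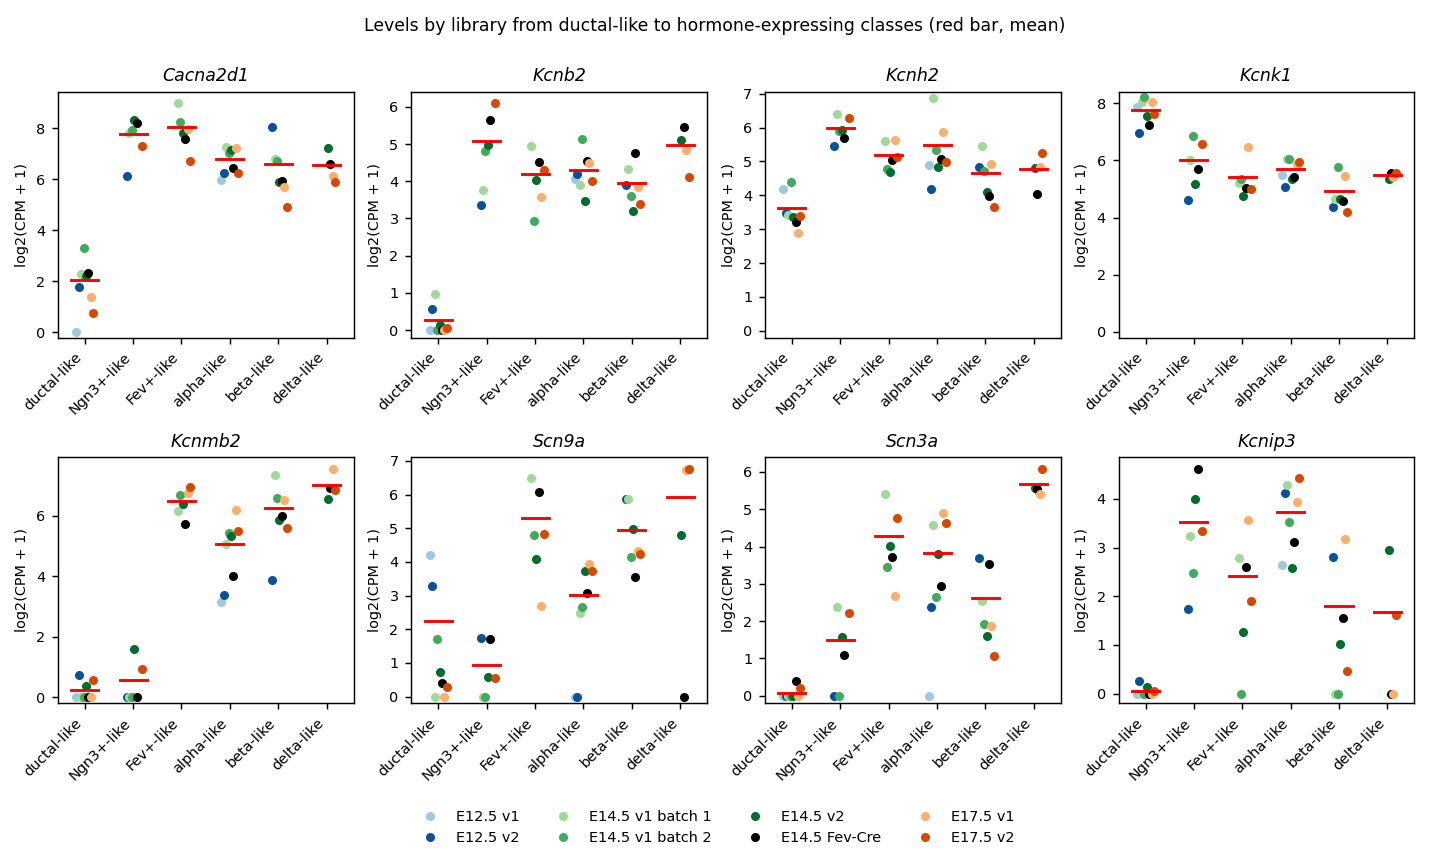
Levels of 8 channel genes, as log2(CPM + 1), in 6 classes (horizontal axis) with 1 point per library (colours) and a red bar at the mean CPM. Cacna2d1 and Kcnb2 rise between ductal-like and Ngn3+-like cells, Kcnmb2 between Ngn3+-like and Fev+-like cells, Kcnh2 is highest in Ngn3+-like cells, and Scn3a is highest in delta-like cells.

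Between Ngn3+-like and Fev+-like cells, 29 channel genes were tested in 5 libraries, 8 rose and 10 fell, where 18.3% of all 10682 genes tested rose and 19.5% fell (37.8% either way). The median log2 difference was 0.04 for the channel genes and 0.02 for all genes. Without the Fev-Cre library, or without E17.5 version 2, 10 genes in place of 18 were called, and without E14.5 version 2, 11. Of the 18, 6 were then too low to be tested without Fev-Cre, and 5 without either version 2 library of Swiss Webster cells, Kcna5, Kcnq1 and Scn3b among them each time.

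The gene with the steepest rise was Kcnmb2 (mm10 chr3:31902507-32200180, plus strand), whose product is an inactivating auxiliary subunit of the BK channel. In Ngn3+-like cells it was at 0 in 4 of 6 libraries and at most 1.99 CPM in the others. In Fev+-like cells it stood at 71.2 and 103 CPM in the E14.5 version 1 batches, 108 in E17.5 version 1, 82.7 and 123 in E14.5 and E17.5 version 2, and 51.8 in the Fev-Cre library. The groups were far apart, and the log2 difference was 6.28 ± 0.34 with an adjusted p of 9.48e-11 (edgeR). Kcnma1, the BK pore, went the other way by 1.07 ± 0.30 in size, from 15.7 to 8.60 CPM, a call lost in DESeq2, without E14.5 version 2 (log2 -0.88) and without E17.5 version 2 (log2 -0.95). Pore and auxiliary subunit thus appeared at different steps in these sums.

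Of 3 tested sodium channel pores 2 rose at this step, as did the 1 auxiliary gene tested. Scn9a, which encodes NaV1.7 (mm10 chr2:66480080-66634962, minus strand), stood at 89.0, 26.6, 5.42, 16.0, 27.4 and 66.7 CPM in the 6 Fev+-like sums and at no more than 2.32 in Ngn3+-like cells. Its log2 difference over the 5 shared libraries was 5.03 ± 0.38, with an adjusted p of 4.64e-09 by edgeR. Scn3a, the embryonic NaV1.3 gene, rose from 2.20 ± 1.74 to 20.99 ± 13.04 CPM (SD, n = 5), without overlap and by 2.82 ± 0.37. The auxiliary gene Scn3b had 42 UMIs against 1, a pooled ratio of 33.3 (95% counting interval 5.66 to 1347). Scn8a, the third sodium pore tested here, gave a log2 difference of 0.34 with a 95% interval of -0.78 to 1.47 and was not called.

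The genes that fell were mostly voltage-gated potassium channels. Of 10 tested pores and modifiers, 7 fell and 1, Kcna5, rose. Among the 7, Kcnc1 lost its call without E17.5 version 2 (log2 -1.33) or Fev-Cre (-1.22). Kcnh7 and Kcnq1 were too low to be tested without E14.5 version 2, E17.5 version 2 or Fev-Cre. Kcnh2 fell from 66.2 ± 13.9 to 33.0 ± 8.91 CPM (SD, n = 5), without overlap and with a log2 difference of -1.17 ± 0.17, where its ductal-like mean was 11.2 CPM. Kcnb2 and Kcnh8 each fell in 4 of 5 libraries, by log2 differences of -1.44 ± 0.25 and -1.48 ± 0.28. Kcnip3 fell in 5 of 5, by -2.39 ± 0.38, and could not be tested without E14.5 version 2 or without Fev-Cre. The L-type calcium channel gene Cacna1d rose by 1.37 ± 0.39, from 3.35 to 14.9 CPM, and missed the threshold without E17.5 version 2 (log2 1.27, adjusted p 0.0513 by edgeR). Cacna2d1 was not called, with a log2 difference of -0.33 and an interval of -1.14 to 0.49.

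From Fev+-like to alpha-like cells, 25 genes were tested in 6 libraries, 7 were higher and 5 lower, against 10.9% and 9.78% of all 9497 genes (20.7% either way). The count dropped to 5 without E17.5 version 2 or without Fev-Cre and to 6 without E14.5 version 2. Kcnip3, Kcnk3 and Cacna1c were among the genes too low to be tested in each of these 3 cases. Kcnk3, the acid-sensitive leak channel TASK-1 (mm10 chr5:30588170-30625271, plus strand), went from 8.07 ± 5.76 to 20.1 ± 8.68 CPM and was higher in 6 of 6 libraries, by 1.17 ± 0.27. Kcnip3 was higher again, by 1.75 ± 0.41, and Kcnk1 by 0.73 ± 0.17. Cacna1c, the cardiac and vascular L-type pore, rose from 2.46 to 10.7 CPM in 6 of 6 libraries. The lower genes included Cacna1h (log2 -1.87 ± 0.25), Kcnmb2 (-1.20 ± 0.16), Cacna2d1 (-0.78 ± 0.14, lost with doublets kept or a minimum of 10 cells) and Scn9a (-1.78 ± 0.50). The Scn9a call was lost without either E14.5 version 1 batch, where its log2 difference was -1.68 and -1.77.

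From Fev+-like to beta-like cells, 17 genes were tested in 6 libraries, and the 3 called were all lower, where calls were higher and lower for 15.8% and 13.6% of 8425 genes (29.3% either way). Without E17.5 version 1 the count was 6, with 2 of the 3 among them, and without Fev-Cre 1. Cacna2d1 stood in beta-like cells at 111 and 104 CPM in the E14.5 version 1 batches, 51.1 in E17.5 version 1, 57.8 in E14.5 and 29.0 in E17.5 version 2 and 60.7 in the Fev-Cre library. Each value lay below that of the Fev+-like cells of its library, and the log2 difference was -1.38 ± 0.13, with an adjusted p of 2.83e-08 by edgeR. Scn3a (log2 -1.70 ± 0.52) and Kcnh6 (-1.21 ± 0.33) were the others. Scn3a lost the call when any 1 of the 3 version 1 libraries was left out (log2 -1.64, -1.70 and -1.73) and was too low to be tested without any 1 of the other 3, and Kcnh6 lost it without the Fev-Cre library (log2 -0.82). Kcnmb2 was not called, with a difference of 0.15 and an interval of -0.25 to 0.55. With plain totals in place of TMM scaling, a choice added after the data were seen, the median of all genes shifted by -0.41 and 10 channel genes were lower.

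Alpha-like and beta-like cells of the same 7 libraries differed in 8 of 23 tested genes, 2 higher in beta-like cells and 6 lower, against 10.4% and 7.84% of 9035 genes (18.2% either way). The count was 5 without E14.5 version 2 and 4 without E17.5 version 2. Without E12.5 version 2, whose beta-like cells held more of the alpha than of the beta markers, it was 9: Cacng4 could no longer be tested, Scn9a (log2 1.28 ± 0.24) was higher in beta-like cells and Cacna2d1 (-0.61 ± 0.13) lower. Kcnmb2 stood in beta-like cells at 164, 95.6 and 91.5 CPM in the E14.5 batches and E17.5 of version 1, at 13.9, 56.8 and 47.4 in version 2 from E12.5 to E17.5, and at 62.4 in the Fev-Cre library. The alpha-like cells of these libraries stood at 32.3, 42.1, 71.7, 9.35, 39.3, 44.1 and 15.0 CPM. Beta-like values were the higher in 7 of 7 libraries although the ranges overlapped, and the log2 difference was 1.27 ± 0.20 (adjusted p 0.000255, edgeR). Without E12.5 version 2 the Kcnmb2 difference was 1.32 ± 0.19. Cacna1h, the T-type channel, was likewise higher in 7 of 7, at 22.5 ± 11.7 against 8.07 ± 3.61 CPM, by 1.62 ± 0.25. Without E12.5 version 2 it differed by 1.51 ± 0.26. Scn9a gave 1.80, higher in 7 of 7, with an interval of 0.38 to 3.22, and its adjusted p of 0.0745 (edgeR) missed the threshold with all 7 libraries.

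The genes with higher levels in alpha-like cells were Kcnip3, Cacng4, Kcnk3, Cacnb3, Kcnk1 and Kcnh2. Kcnk3 stood at 13.8, 21.03, 21.5, 23.4, 7.14, 32.0 and 25.1 CPM in the alpha-like sums of the 7 libraries and at 9.63, 5.62, 5.38, 13.9, 1.01, 3.18 and 7.11 in the beta-like ones. The alpha-like value was the larger within every library, and beta-like against alpha-like differed by -1.88 ± 0.26. Kcnip3 differed by -2.90 ± 0.50 and Cacng4, a relative of stargazin, by -2.60 ± 0.55, each in 7 of 7 libraries, and both were too low to be tested without E14.5 version 2, E17.5 version 2 or Fev-Cre. Without E12.5 version 2 the difference was -2.08 ± 0.26 for Kcnk3 and -3.22 ± 0.51 for Kcnip3. Cacnb3, a cytoplasmic beta subunit of calcium channels, differed by -0.89 ± 0.27, a call lost without E17.5 version 1 (-0.85) or E17.5 version 2 (-0.76). Kcnh2 was called at -0.64 ± 0.20 with all 7 libraries and lost the call without any 1 of 6 of them, with log2 values from -0.69 to -0.53. Without the seventh, E12.5 version 2, it was called at -0.80 ± 0.17. Cacna1a, Kcnb2 and Kcnk16 were not called, with log2 differences of 0.24 (interval -0.22 to 0.69), -0.02 (-0.57 to 0.54) and 0.20 (-0.39 to 0.80). Without E12.5 version 2 they were not called either, at 0.07, 0.06 and 0.20.

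Between delta-like and beta-like cells, 19 genes were tested in 4 libraries, and the 7 called were all higher in delta-like cells, where calls were higher and lower for 9.38% and 11.8% of 7633 genes (21.2% either way). Without E17.5 version 2, which held 166 of the delta-like cells, 3 were called, 2 of them among the 7, and Kcnj13, Kcnk3, Kcna5, Cacna2d2 and Kcnh8 were too low to be tested. Without Fev-Cre the same held for Kcnj13, Kcna5 and Kcnh8, and without E14.5 version 2 for Kcnj13. Scn3a (mm10 chr2:65457118-65567627, minus strand) stood at 41.8 CPM in E17.5 version 1, 46.9 in E14.5 version 2, 66.9 in E17.5 version 2 and 45.9 in the Fev-Cre library, whereas beta-like cells of the 7 libraries lay between 1.09 and 11.9. The log2 difference was 3.71 ± 0.57 with an adjusted p of 0.00152 (edgeR).

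Kcnj13, the inward rectifier Kir7.1 known from transporting epithelia (mm10 chr1:87386363-87394729, minus strand), stood at 6.96, 53.6, 5.46 and 27.6 CPM in the same order of libraries and at no more than 1.09 in their beta-like cells. It rested on 26 UMIs against 6, with a log2 difference of 4.77 ± 0.92. Cacna2d2, a second carrier of calcium channels to the surface, had 32 UMIs against 3, a pooled ratio of 91.5 (95% counting interval 28.6 to 467). Kcnmb2 was higher again, at 188, 93.7, 115 and 119 CPM, the highest level of this gene in any class, and by 0.66 ± 0.17 over beta-like cells. Kcnk3 and Kcnh8 were higher in 4 of 4 libraries, by 1.97 ± 0.48 and 1.41 ± 0.52 (the second not called by DESeq2), and Kcna5 in 3 of 4, by 2.95 ± 0.75. Scn9a varied within the delta-like cells, from 104 and 108 CPM in the E17.5 libraries to 26.8 in E14.5 version 2 and 0 in the Fev-Cre library, and was not called (log2 1.28, interval -0.84 to 3.40). Epsilon-like cells, sampled in 3 libraries, had the highest mean of Cacna2d1, at 727 CPM in E14.5 version 2 and 151 and 163 CPM in E17.5 version 2 and Fev-Cre, so that 1 library set that mean.

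**Figure D3:**
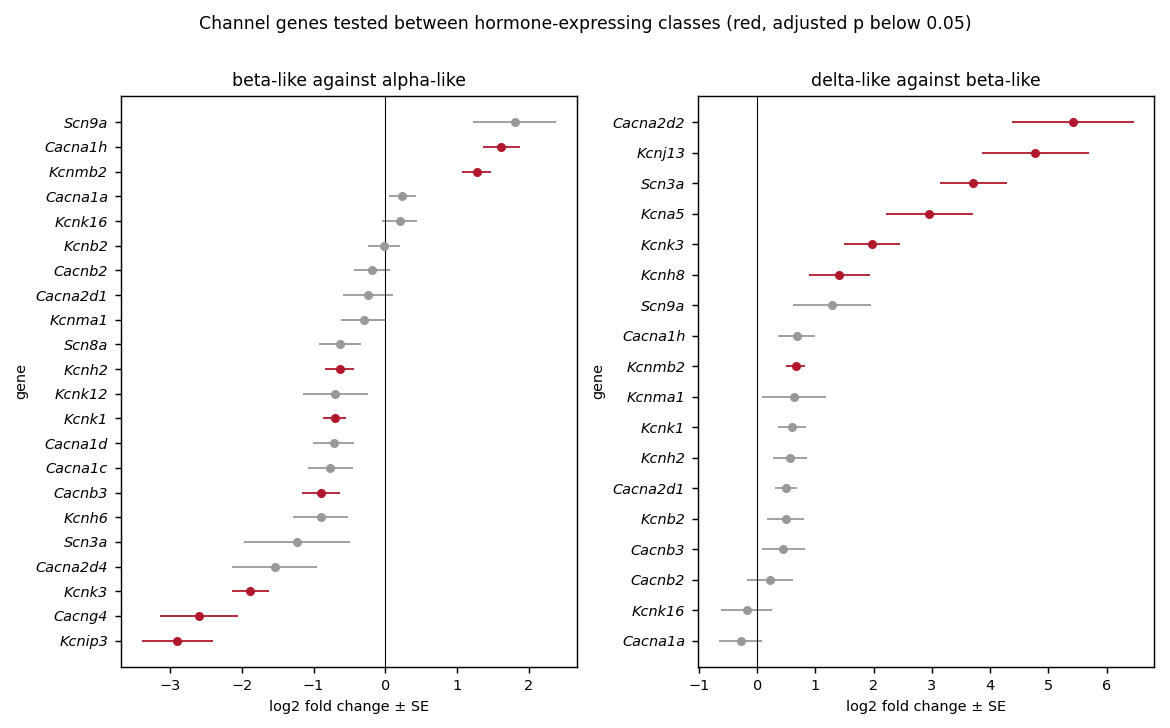
Log2 fold changes with standard errors for the channel genes tested between beta-like and alpha-like cells (left, 22 of the 23 genes, 7 libraries) and between delta-like and beta-like cells (right, 18 of the 19 genes, 4 libraries), red where the adjusted p was below 0.05. In the left plot 2 red points lie above 0 and 6 below, and in the right plot the 7 red points lie above 0.

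The genes of the ATP-sensitive potassium channel were measured very unequally. Kcnj11, its Kir6.2 pore (mm10 chr7:46093953-46100764, minus strand), had 38 UMIs over all matrices and no more than 6 in any class, with a mean of 0.366 CPM in beta-like cells. No comparison had enough Kcnj11 counts for a test. Its partner Abcc8, which is not among the 113, rose from 9.61 to 23.2 CPM between ductal-like and Ngn3+-like cells and from 24.4 to 167 CPM in the step to Fev+-like cells, by 2.96 ± 0.23. It was higher still in alpha-like than in Fev+-like cells, at 345 against 162 CPM. In a list of 42 partners and neighbours of these channels (among them sulfonylurea receptors, calcium stores, release-site proteins and HCN and TRPM channels), 21 were tested at the Ngn3+ step, with 11 higher and 3 lower against 25.7% and 28.4% of all genes, and 23 at the Fev+ step, with 11 higher and 1 lower against 18.3% and 19.5%. In the later comparisons, whose shares over all genes stand with each of them, 5 partners were higher and 7 lower of 23 tested in alpha-like against Fev+-like cells, and 8 and 1 of 20 in beta-like against Fev+-like. In beta-like against alpha-like cells 9 were higher and 2 lower of 23, and in delta-like against beta-like 4 and 10 of 22. In mural-like against other mesenchyme 3 were higher and 4 lower of 19, and in neural-like cells 3 and 14 of 21. Pclo and Unc13a, proteins of the release site, rose at the first comparison of this list, the Ngn3+ step, by 5.67 ± 0.32 and 5.30 ± 0.58.

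Mural-like cells, the smooth muscle and pericyte-like cells around vessels, were set against the other mesenchyme of their 7 libraries. There 42 genes were tested, 6 higher and 8 lower, against 9.47% and 15.3% of 11690 genes (24.8% either way). Without E14.5 version 2 or without E17.5 version 2, 9 in place of 14 were called. In the first case 9 of the 14 kept their call, in the second 5, with 6 lost and 3 too low to be tested. Kcnj8, the Kir6.1 pore of the vascular ATP-sensitive channel (mm10 chr6:142564837-142571614, minus strand), stood in mural-like cells at 373 and 424 CPM in the E14.5 version 1 batches, 719.7 in E17.5 version 1, 237, 246 and 328 in version 2 from E12.5 to E17.5 and 224 in Fev-Cre. Other mesenchyme ran from 91.4 to 196 CPM, and no value of one group reached the other. The log2 difference was 1.12 ± 0.13 with an adjusted p of 4.2e-05 (edgeR). Kcnj8 was also at 174 CPM in mesothelial-like cells and at most at 1.83 in the means of the endocrine classes. Abcc9, its regulatory partner, stood at 88.9 CPM in mural-like cells and 28.6 in other mesenchyme, higher in 7 of 7 libraries.

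Kcnmb1, the smooth-muscle auxiliary subunit of the BK channel, had 35 UMIs in mural-like cells and 9 in other mesenchyme and was higher in 5 of 7 libraries, by 4.13 ± 0.86, but too low to be tested without either E17.5 library. Its levels were 0 in both E14.5 version 1 batches and 1.33 to 11.995 CPM in the other 5 mural-like sums, where the top value was 1 UMI. Alpha-like cells had a higher mean of this gene, 8.12 against 4.23 CPM, a pair that was not tested. Kcne4, a small partner of Kv channels, was not called, at 4.83 to 79.4 CPM against 1.15 to 33.0 (log2 1.36, interval -0.35 to 3.07). Cacnb3 and the T-type pore Cacna1g were lower, by log2 differences of -1.54 ± 0.24 and -1.50 ± 0.33. Kcna1 was lower too, with 1 UMI against 362, a pooled ratio of 48.2 in the other direction (95% counting interval 8.60 to 1910), and was not called by DESeq2. In other mesenchyme Kcna1 stood at 16.97, 10.8 and 8.83 CPM in the CD140a-negative sorts, at no more than 0.795 in the version 1 libraries of all live cells and at 1.41 in the Fev-Cre library. In the Swiss Webster libraries the sort and the kit cannot be told apart, and the Fev-Cre library differed in strain as well.

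The extent of the mural-like class bears on these counts. A version 1 cluster of 804 cells led by Actg2, Stmn2 and Acta2 was kept out because it rested on 5 mural markers where 6 were asked for, a minimum set after the clusters had been seen. Of its cells, 494 came from the E12.5 library, 52 from batch 1 and 141 from batch 2 of E14.5, and 117 from the E17.5 library. With it counted as mural-like, an alternative added after the data were seen, 4 genes were called in place of 14. Those were Kcnj8 (log2 1.02), Kcnmb1 (3.57) and Cacnb2 (1.99) higher and Kcna1 (-3.86) lower. When single libraries were left out, Cacnb1 lost its call in 6 cases (log2 -1.11 to -0.93), Kcnb2 in 5 (1.11 to 1.31), Kcnn2 in 5 (1.08 to 1.52) and Cacna1b in 4 (1.66 to 2.26). Kcnh2 lost it without E12.5 version 2 (-1.60), Kcnk5 (-1.58) and Kcnn1 (-1.35) without E17.5 version 2, and Cacng8 in 3 cases. Kcnj8, Cacnb3, Cacna1g and Kcna1 kept theirs whichever library was left out. General mesenchymal markers (8 genes) summed to 1272 to 6835 CPM in mural-like and 1787 to 18452 in other mesenchyme, and mural markers (12 genes) to 2438 to 13695 and 342 to 1175.

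**Figure D4:**
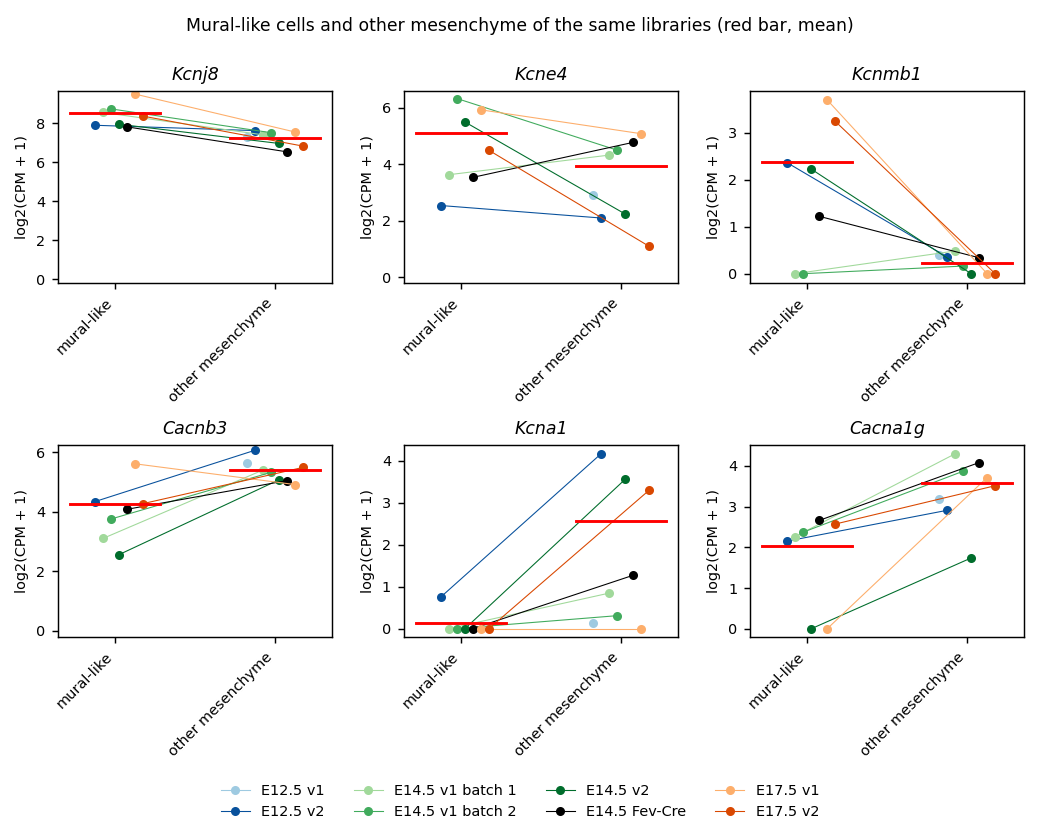
Levels of 6 channel genes, as log2(CPM + 1), in mural-like cells and other mesenchyme, with 1 point per library, lines joining the classes of a library and red bars at the mean CPM. Kcnj8 is higher in mural-like cells in all 7 libraries with both classes, whereas Cacnb3 and Cacna1g are lower in most.

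Named neural cells were few. In E12.5 version 2, 28 cells were neuron-like, 21 glia-like, and 589 lay in neural clusters without a name. Neural clusters without a name were left out of the main values, which describe only the named part of this compartment. Neuron-like cells reached 20 cells in 2 libraries and glia-like cells in 3, and 4 libraries had enough of both together. Neuron-like cells had 20 channel genes at a mean of 10 CPM or more, beside 19 each in alpha-like and delta-like cells. In their 2 sums 1 UMI makes 4.62 and 5.55 CPM. They held the highest mean of 18 genes, of which 11 reached 10 CPM and 7 rested on 3 UMIs or fewer. Scn3b stood at 60.1 and 16.6 CPM in the neuron-like cells of the E12.5 version 2 and Fev-Cre libraries, and Kcnj12, the inward rectifier Kir2.2, at 32.3 and 33.3. These neuron-like values rest on 3 to 13 UMIs each. Red blood cell markers summed to 29713 CPM in the first of these sums and to 5.55 in the second. In glia-like cells a group of genes was high in 1 library. Scn7a, a sodium channel relative of glia, stood at 243 CPM in E17.5 version 2 and at 2.79 and 6.24 in E12.5 version 2 and Fev-Cre. Kcna1, Kcna2 and Kcna6, the Kv1 delayed rectifiers, stood in E17.5 version 2 at 57.1, 83.3 and 64.3 CPM and in the other glia-like sums at no more than 12.48, 3.12 and 15.6. Since the E12.5 version 2 sum held more of the neuron than of the glial markers, these 3 sums are not shown to be 1 class of cells, and without it the values came from E17.5 version 2 and Fev-Cre alone. They were not tested.

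Against the alpha-like and beta-like cells of the same 4 libraries, neural-like cells differed in 11 of 22 tested genes, 6 higher and 5 lower, against 19.6% and 20.4% of 8666 genes (40.1% either way). The neural-like sums mixed neuron-like and glia-like cells, 14 and 9 of them in E14.5 version 1 batch 2. E12.5 version 2 held 28 and 21, E17.5 version 2 held 8 and 71, and Fev-Cre held 20 and 36. Alpha-like and beta-like cells went from 226 and 92 in E12.5 version 2 to 333 and 596 in E17.5 version 2. The part of these mixes in the spread was not tested. Kcnj12 was higher in 4 of 4, at 112, 22.6, 8.97 and 14.0 CPM against a mean of 0.106, by 5.92 ± 0.97. Cacng4 stood at 77.7, 57.4, 7.18 and 39.9 CPM and differed by 2.17 ± 0.43. Without E12.5 version 2, 10 were called and 8 of the 11 kept their call, Kcnj12 and Kcnk3 were too low to be tested, and Kcnh2, lower with all libraries, lost its call (log2 -1.06, adjusted p 0.103 by edgeR). Without Fev-Cre, Kcnh2 lost it as well and Kcnk3 could not be tested. Cacnb1, Kcnk5, Kcna5 and Scn9a were the other higher genes. Scn9a lost its call without any 1 of 3 libraries, at 0.85 to 1.16, Kcna5 without E14.5 version 1 batch 2 or E17.5 version 2 (adjusted p 0.0858 and 0.0712 by edgeR), and Kcnk5 without Fev-Cre (adjusted p 0.0681), while Cacnb1 was too low to be tested without E17.5 version 2. Lower in neural-like cells without overlap were Cacna1a (log2 -2.61 ± 0.39), Kcnk1 (-2.44 ± 0.42), Kcnk3 (-2.38 ± 0.57) and Kcnb2 (-2.36 ± 0.55, lost without Fev-Cre at -2.02). The count rested on the libraries, with 6 called without Fev-Cre and 20 without E14.5 version 1 batch 2, of which 9 were among the 11. Counting a cluster of 136 version 2 cells led by Rgs5 and Th as neuron-like raised it to 23. The shares of all genes called in these alternative fits are not set beside these counts, so the changes are not a result about the channel genes.

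Over stages, the comparison of E17.5 with E14.5 in Swiss Webster libraries, with the kit as a term, called no channel gene. E14.5 batch 2 and the E17.5 version 1 library were collected as 1 batch, and batch 1 and each version 2 library on other days. Without batch 1, so that each kit compared 1 pair of libraries, none of 8 genes in beta-like and none of 17 in alpha-like cells was called by edgeR on 1 residual degree of freedom, where 1.22% and 1.33% of all genes were called. At an unadjusted p below 0.05 stood 0 of the 8 and 6 of the 17, against 12.7% and 10.4% of all genes. In beta-like cells 7 were tested, and 0.480% of all 4999 genes were called. None of the 7 had an unadjusted p below 0.05 in edgeR, against 535 of all genes, and DESeq2 called none. Cacna2d1 stood at 29.0 and 51.1 CPM in the E17.5 libraries and at 57.8 to 111 in the E14.5 ones, without overlap, yet gave a log2 difference of -0.51 with an interval of -1.75 to 0.74 on TMM scaling. The difference was 0.15 (-1.15 to 1.44) for Kcnmb2 and 0.48 (-1.07 to 2.03) for Cacna1a, so changes of more than 2-fold are within these intervals. In alpha-like cells 6 were tested and 0.937% of 5550 genes were called. Only Cacnb3 had an unadjusted p below 0.05 in edgeR (log2 1.20, adjusted p 0.309), and DESeq2 called none. Without E17.5 version 1, Kcnk3 passed the filter, with a log2 difference of 2.22. That fit held 1 library at E17.5, so the value has no replicate at that stage. The difference of the stage change between the classes was tested for 9 genes, with none called by edgeR or DESeq2 and none at an unadjusted p below 0.05, where 0.435% of 6202 genes were called.

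Outside that test, E12.5 stood apart in single libraries. Cacna2d1 in the beta-like cluster was at 266 CPM in E12.5 version 2 and at 29.0 to 111 in the other 6, and Kcnmb2 at 13.9 against 47.4 to 164. The E12.5 cells were those whose alpha markers exceeded their beta markers, so a difference of stage within beta-like cells cannot be read from them. In alpha-like cells both E12.5 libraries had the lowest Kcnmb2 levels, 7.82 and 9.35 CPM against 15.0 to 71.7 in the other 6. Scn9a was at 0 in both E12.5 alpha-like sums and at 4.61 to 14.3 CPM in the others. Insulin, glucagon, somatostatin and related hormone transcripts took 1.30% of UMIs in the beta-like cells of E12.5 version 2 and 6.84% to 44.6% in those of the other 6 libraries, and at least 7.18% in alpha-like cells. These E12.5 differences were not tested. For mural-like cells, E17.5 against E12.5 had 3 libraries with 20 cells and no residual degrees of freedom once the kit was a term, so no test was made.

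**Figure D5:**
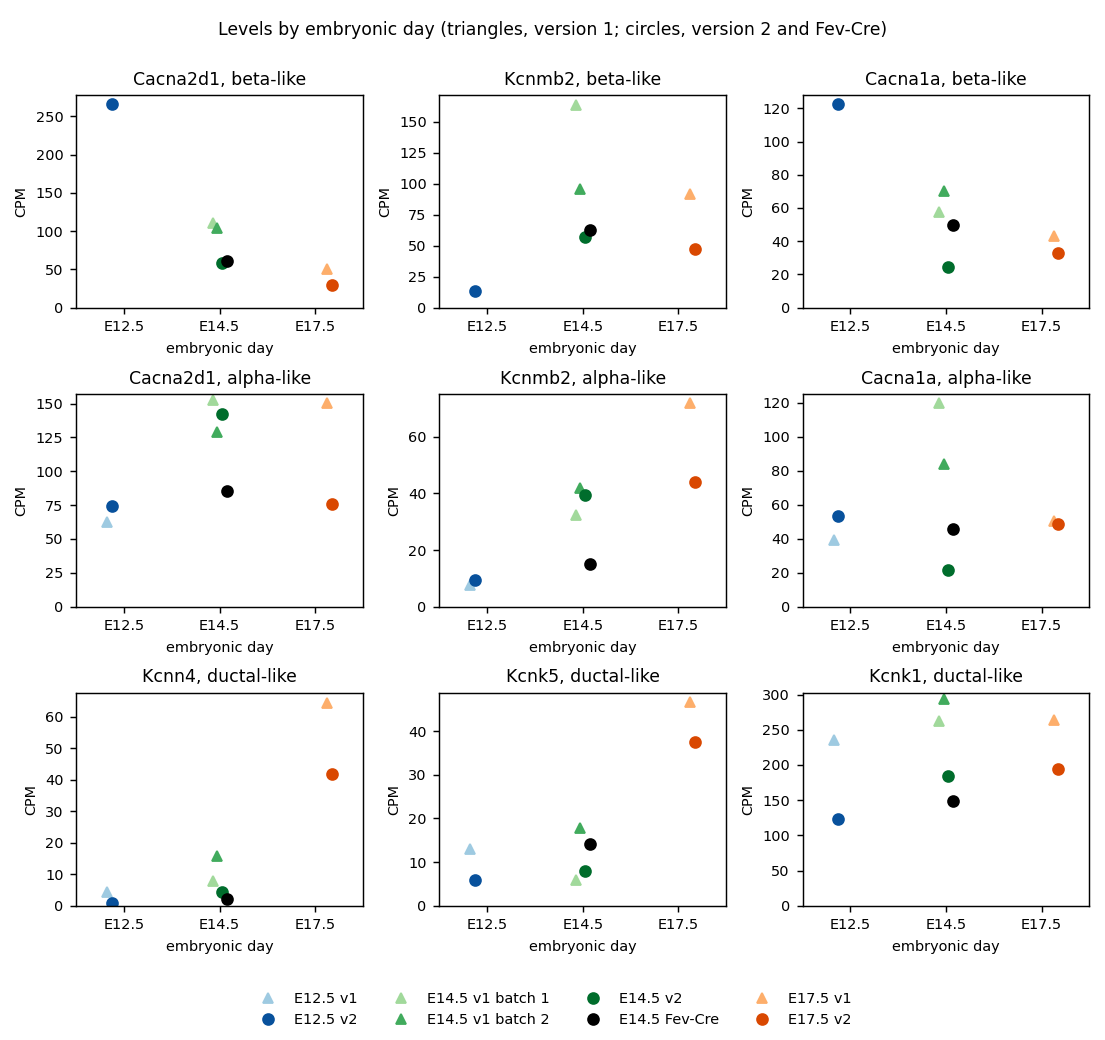
Levels in CPM (vertical axis) by embryonic day (horizontal axis) of Cacna2d1, Kcnmb2 and Cacna1a in beta-like and alpha-like cells and of Kcnn4, Kcnk5 and Kcnk1 in ductal-like cells, with 1 point per library, triangles for version 1 and circles for version 2 and Fev-Cre. Kcnn4 and Kcnk5 are highest in both E17.5 libraries, and Cacna2d1 in beta-like cells is highest in the single E12.5 library, whose cells held more of the alpha than of the beta markers.

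Among the other classes, Kcne3, a small partner of Kv channels, ran from 19.8 to 231 CPM in the 8 endothelium-like sums with a median of 43.4, and Kcna5 from 13.2 to 55.0 with a median of 38.9. The Kcna5 mean there, 38.9 CPM, lay beside 41.6 in the 2 neuron-like sums. Endothelium-like, immune-like and erythroid-like cells had the lowest sums of the 113 genes, with means of 204, 152 and 63.7 CPM. Acinar-like cells were close to the first of these, at 207 CPM. In the erythroid-like sums red blood cell markers (9 genes) took 579224 to 918891 CPM, which lowers the CPM of every other gene in proportion. The order of these classes was not tested.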

How the data were processed

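Single-cell 3′ RNA was counted by the authors with Cell Ranger 1.1 (version 1 kit) and 2.1 (version 2 kit) on mm10, and the deposited matrices hold UMI counts per gene and barcode, not normalised. Cells with 200 or more genes were kept, doublets (2379 cells, with markers of at least 2 compartments, each at 3 or more UMIs and at 30% or more of its usual share in its own cells) were removed, and cells were clustered within kit or library (2000 variable genes without the channel genes, 20 components, 20 neighbours, leidenalg 0.10.2 at resolution 1). Clusters were named from at least 3 markers. Counts were summed per library and class (20 or more cells) and tested with edgeR 4.0.16 (quasi-likelihood, robust, TMM, filterByExpr, Benjamini-Hochberg adjustment over all genes) under R 4.3.3. The library was the block because its classes come from one pool of embryos. Deviations of classes of one library correlated at 0.262 to 0.778, and those of different libraries at no more than 0.346. DESeq2 1.42.0 was an alternative. Levels are CPM on plain totals. Positions are from GENCODE mouse release 21. The fits were tested on simulated data.

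The Fev-Cre library was deposited as matrices with and without reporter sequences, and the first was used. Between classes, the two-sided p-values measure how the difference within a library varied over libraries. Those libraries also differed in stage, kit, sort and strain. Over stages within a class, the p-values measure the spread between pools of embryos that the kit term left. The depth per library was between 2309 and 13182 cells, and intervals on UMI ratios cover counting error only. Named genes were a set known from islet, muscle and nerve physiology, up to 6 per direction and comparison with the largest called differences (30 or more UMIs and the same direction in every library), and those at 100 CPM or more. Kcna1, Kcna6, Cacng8, Kcne3 and Kcne4, the Kcnk5 and Kcnn4 levels by stage, the E12.5 levels, and the markers of the E12.5 version 2 sums were chosen after their values were seen. The members and lists were chosen with earlier results of these data known. A few genes are not reported here.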

Additional observations from a re-analysis of the deposited data

Results flagged for a closer look

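Among 71 levels of named genes in a class with 4 to 10 libraries, 8 had 1 library far from the others by Dixon's ratio, which chance gives in about 1 of 20 groups, and no cause was tested. Cacna2d1 in beta-like cells was at 265.5 CPM in E12.5 v2 (134 UMIs) and at 29.0 to 111 in the others, where the E12.5 v2 cells held alpha markers at 18023 and beta markers at 5368 summed CPM. In ductal-like cells it was at 8.95 CPM in E14.5 v1 batch 2, on 4 UMIs. Kcnj8 in mural-like cells was at 719.7 CPM in E17.5 v1 (60 UMIs from 24 cells) and at 224 to 424 in the others. Cacnb3 in the same sum was at 48.0 CPM on 4 UMIs, against 4.91 to 19.3. Kcnab1 in mesothelial-like cells was at 84.4 CPM in E17.5 v1 (15 UMIs) and at 29.3 to 46.0 elsewhere. Kcnn4 in erythroid-like cells was at 118 CPM in E14.5 v1 batch 1 (57 UMIs) and at 8.17 to 24.9 elsewhere. Kcnj12 in neural-like cells was at 112 CPM in E14.5 v1 batch 2 (13 UMIs) and at 8.97 to 22.6 elsewhere. Scn7a in neural-like cells was at 194 CPM in E17.5 v2 (108 UMIs) and at 1.74 to 17.3 elsewhere.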

How the results depend on the processing

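Counts of channel genes called were recomputed under each alternative, and the cause of a change was not tested. Except for the stage comparison without batch 1, the share of all genes called is not set beside these counts, here or above. They follow the calls from fit to fit and are not a result about the channel genes as a group. Leaving out each library in turn gave 18 to 20 calls for Ngn3+-like against ductal-like cells and 10 to 19 for Fev+-like against Ngn3+-like. It gave 5 to 13 for alpha-like against Fev+-like, 1 to 6 for beta-like against Fev+-like and 4 to 10 for beta-like against alpha-like. For delta-like against beta-like it gave 3 to 7, for mural-like against other mesenchyme 9 to 12 and for neural-like cells 6 to 20. Stage fits without an E17.5 library held 1 library at that stage, so calls over stages are not counted here. With no filter on low counts the first gave 35 calls, beta-like against Fev+-like 12, beta-like against alpha-like 16, delta-like against beta-like 13 and neural-like 34. Without the library block the pairing was lost, fewer genes passed the filter, and the 8 comparisons between classes gave, in the order above, 9, 10, 2, 1, 2, 1, 2 and 2 calls. Doublets kept gave 11 for Fev+-like against Ngn3+-like, 6 for alpha-like against Fev+-like and 23 for neural-like. Clustering at resolution 1.5 gave 7, 6 and 7 for these and 1 for beta-like against Fev+-like. A minimum of 10 cells gave 5 and 6 for Fev+-like against Ngn3+-like and alpha-like against Fev+-like. Plain totals gave 10 for beta-like against Fev+-like and 11 for delta-like against beta-like. Asking also for 2-fold gave 5 for beta-like against alpha-like. Counting the Acta2-led cluster as mural-like gave 4, and the Th-led cluster as neuron-like 23. Mural-like E17.5 against E12.5 could be fitted under alternatives only, with 1 call with doublets kept, 1 at resolution 1.5, 1 with 10 cells, 2 with the Acta2-led cluster and 0 with no kit term. With 500 genes per cell, a single well, DESeq2, no filter or a library left out it could not be fitted. Of 1373 values of called single genes under alternatives, 1092 kept call and direction, 112 lost the call, 0 reversed, and 169 could not be had because the gene was too low to be tested there. Of 92 gene results, 21 were tested and called under every alternative, and 35 under every one that kept the library block. At the depth of these libraries between 71 and 96 of the 113 genes were too low to be tested in a comparison between classes.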

Other observations

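Cacna1a, in ductal-like cells, stood at 11.3 to 24.6 CPM in the 4 version 1 libraries and at 0.855 to 8.02 in the version 2 and Fev-Cre libraries, and the E14.5 version 2 library held the lowest Cacna1a level in ductal-like, Ngn3+-like, Fev+-like, alpha-like and beta-like cells.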
